A study of Mus musculus with 16 samples.

Results

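Plat, Plau, Plaur, Serpine2 and Serpinb2 are 5 genes of the plasminogen activation system, out of the 55401 genes in the deposited count table. They were picked by symbol, as the tissue-type activator, the urokinase-type activator, the urokinase receptor and a pair of protease inhibitors, and the picks were made with their values in these libraries already known. Differences in their RNA between the groups are therefore given as a description, with no test. The series used MC38, a mouse colon tumour cell line, grown in DMEM with 10% fetal bovine serum, in a form labelled WT (titles tagged gNC) and a form labelled Ythdf2-KO (titles tagged gY2). YTHDF2 is a cytoplasmic protein that binds N6-methyladenosine (m6A), a methyl mark on mRNA, and brings the bound mRNA to the decay machinery. The labels do not say whether the knockout is a single clone or a pool, nor whether replicates came from separate cultures, so the spread between replicates may be technical. Gene counts covered poly(A) RNA of the input libraries, 3 WT and 3 Ythdf2-KO. Peak lists covered m6A immunoprecipitation of both forms, with 1 list each, and immunoprecipitation of YTHDF2 with its bound RNA (RIP) from WT cells, with 1 list. The RIP titles carry no guide tag, so they do not say whether the RIP cells were the gNC cells.

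Plasminogen is a circulating zymogen that 2 serine proteases, tPA (encoded by Plat) and uPA (encoded by Plau), cut into plasmin. Plasmin dissolves fibrin, cuts other matrix proteins and activates growth factors, and tumour cells use the system when they remodel the matrix around them. The uPA receptor (Plaur) holds uPA at the cell surface, while serpins such as PAI-2 (Serpinb2) and protease nexin-1 (Serpine2) trap the activators in covalent complexes.

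The libraries held 45441281 to 50959555 counts each, so that 3 counts amount to 0.0582 to 0.0651 CPM. CPM is the count scaled to a common library size with TMM factors, and 3 counts mark the upper limit for a gene with no read, as far as counting error goes. Ythdf2 itself did not differ in whole-gene counts: the WT libraries had 55.6, 68.5 and 59.6 CPM, the Ythdf2-KO libraries 67.9, 59.8 and 61.5 CPM, with edgeR's log2 fold change at 0.04 (SE 0.10, adjusted p = 0.809). Reads from exons away from an edit are part of such a count, which leaves the knockout unchecked, and the libraries are called KO-labelled throughout. KO-labelled replicate 1 was intermediate along principal component 1 and apart along component 2. Component 1 held 51.4% of the variance. On it replicate 1 lay at -10.4, the WT libraries between -39.2 and -38.6, and KO-labelled replicates 2 and 3 at 64.1 and 63.2. On component 2, KO-labelled replicate 1 lay at 50.5, WT replicate 1 at 9.7, and the other libraries between -27 and -6.1. For KO-labelled replicate 1, chi-square per degree of freedom, smaller for closer libraries, was 29.9, 47.5 and 47.7 to WT replicates 1, 2 and 3. To KO-labelled replicates 2 and 3 it was 72.3 and 72.1. WT replicate 1 was itself at 30.5 and 28.2 to WT replicates 2 and 3. WT replicates 2 and 3 were at 9.01 to each other, and KO-labelled replicates 2 and 3 at 10.2. Of 9 carcinoma epithelium markers, all 9 were below 1 CPM in every library, with Epcam, Krt18 and Cldn7 at 0 counts. Their summed level was 0.565 to 0.679 CPM in WT and 0.388 to 0.638 CPM in KO-labelled libraries, so the defining transcripts of epithelium were at or near 0 in cells labelled as a colon tumour line. The 9 fibroblast markers, led by Col3a1, summed to 2120 to 2680 CPM in WT and 1500 to 2640 CPM in KO-labelled libraries, with Acta2 below 1 CPM, and the upper KO-labelled value came from replicate 1. Of the 8 that were tested, 1 was called, beside 2.99% of all tested genes called higher and 1.54% lower. It was Dcn, a matrix proteoglycan, lower in KO-labelled libraries (log2 fold change -0.82, adjusted p = 0.0355 by edgeR). Pdgfra went the other way (0.23, adjusted p = 0.226 by edgeR). Col1a2, a collagen chain, stood at 44.1 to 61.9 CPM in WT, 25.7 CPM in KO-labelled replicate 1 and 2.33 and 2.47 CPM in replicates 2 and 3 (-2.31, adjusted p = 0.136), the same split of the KO-labelled libraries as in Plat below, and its part in the results was not tested. The 10 leukocyte and macrophage markers summed to 67.7 to 87.0 CPM in WT and 52.0 to 130 CPM in KO-labelled libraries, nearly all of it Cd68 and Lyz2, while the other 8 were below 1 CPM and Adgre1 and S100a9 were at 0. The 6 endothelial markers summed to 1.65 to 2.00 CPM in WT and 2.04 to 2.96 CPM in KO-labelled libraries, and Emcn was at 0. In bulk RNA, a change in the number of cells of a kind and a change in the RNA of each cell cannot be told apart.

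Plat encodes tPA, the activator best known for clearing fibrin clots (ENSMUSG00000031538.6, mm10 chromosome 8, 22757727 to 22782844, plus strand, protein-coding, 14 exons in its main coding transcript). It was low in WT and higher in all KO-labelled libraries. WT libraries held 583, 499 and 552 of its reads, and KO-labelled replicates 1, 2 and 3 held 1066, 3424 and 3149. Scaled, this was 12.3, 10.8 and 10.7 CPM in WT against 20.7, 69.5 and 67.0 CPM. The groups did not overlap, and replicate 1 stayed well below replicates 2 and 3, which lay close together. Mean levels were 11.3 ± 0.900 CPM (WT) and 52.4 ± 27.5 CPM (KO-labelled; SD, n = 3), and the log2 fold change was 2.21 (SE 0.42). Without KO-labelled replicate 1 the log2 fold change was 2.60 (SE 0.09).

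A single YTHDF2 RIP peak lay on Plat, across its stop codon, at chr8:22781978-22782157. Its coding part, shown because it is the one place on the Plat mRNA where the deposited lists record the reader, ends with the stop codon. Capitals mark complete matches to the m6A consensus DRACH, which reads A, G or T, then A or G, then A, then C, then A, C or T, searched on the transcript's own strand.
Plat, chr8:22781978-22782106, plus strand: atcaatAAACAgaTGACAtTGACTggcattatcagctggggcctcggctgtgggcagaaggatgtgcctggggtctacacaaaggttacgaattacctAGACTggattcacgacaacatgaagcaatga
Plat, 3′ UTR window, chr8:22782127-22782156, plus strand: caatccagaggaGGACCtgccttcctcttc
The fifth of 6 DRACH matches in the peak runs over the stop codon, and the GGACC in the window, 35 bases after it, is the only one built on GGAC, a common core of m6A sites. Among RIP peaks at most 2 bases shorter or longer than this one (1441 with a transcript sequence), 97.8% held DRACH, with a median of 4 matches, and 47.8% held GGAC. The motifs are therefore usual for a peak of this size.

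Plau encodes uPA, the activator that works at the cell surface (ENSMUSG00000021822.3, chromosome 14, 20836660 to 20843385, plus strand). Not a single count fell on it in any of the 6 libraries, whose counts summed to 292716876. Taken over all 6 libraries, 0 counts still allow up to 0.0102 CPM. No annotated gene overlaps it, and 19.8% of the 21208 protein-coding genes in the table were also at 0 throughout. No peak of any list lay on it either. Of the 2 activators, the count table thus holds reads for Plat alone.

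Plaur encodes uPAR, the receptor that is anchored to the membrane by a lipid tail and binds uPA (ENSMUSG00000046223.10, chromosome 7, 24462484 to 24475968, plus strand, 7 exons). WT libraries held 1577, 1420 and 1693 of its reads and KO-labelled libraries 1653, 2007 and 2171. It stood at 33.3, 30.8 and 32.8 CPM in WT and at 32.1, 40.7 and 46.2 CPM in KO-labelled replicates 1, 2 and 3. KO-labelled replicate 1 lay inside the WT range and the other two lay above it, so the groups overlapped. The means were 32.3 ± 1.32 CPM and 39.7 ± 7.11 CPM (SD, n = 3), which gave a log2 fold change of 0.29 (SE 0.14). Without KO-labelled replicate 1 it was 0.43 (SE 0.08).

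Its single RIP peak lay in the 3′ UTR, at chr7:24475641-24475819, centred 259 bases after the stop codon of a UTR of 496 bases. The windows show its only DRACH match and then its 2 copies of ATTTA, the core of AU-rich elements that other decay factors read, in capitals.
Plaur, DRACH, chr7:24475719-24475748, plus strand: ttttgtaccagtGAACAaggttgggtctcc
Plaur, ATTTA, chr7:24475677-24475706, plus strand: gttattgctctaATTTAttatataaatata
Plaur, ATTTA, chr7:24475747-24475776, plus strand: ccccactgtcacATTTAgcttgggaagatg
The Plaur peak thus held 1 DRACH match against a median of 4 in RIP peaks of its length, no GGAC, and ATTTA, which 20.3% of such peaks hold.

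Serpine2 and Serpinb2 inhibit plasminogen activators, and Serpine2 also inhibits thrombin. Both were at the edge of detection. Serpine2 (ENSMUSG00000026249.10, chromosome 1, 79794197 to 79861180, minus strand) had 7, 0 and 0 counts in WT and 2, 11 and 4 in KO-labelled libraries, or 0.148, 0 and 0 CPM against 0.0388, 0.223 and 0.0851 CPM. Serpinb2 (ENSMUSG00000062345.10, chromosome 1, 107511423 to 107535478, plus strand) had 11, 0 and 9 counts in WT and 7, 0 and 10 in KO-labelled libraries, or 0.233, 0 and 0.175 CPM against 0.136, 0 and 0.213 CPM. In both genes the groups overlapped and at least 1 library held no read. Serpinb2 also overlaps Serpinb10 on the same strand. Serpinb10 itself had 0 counts in all 6 libraries, and the origin of the few Serpinb2 reads was not tested. Neither gene passed the filter on low counts, and neither had a peak.

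**Figure D1:**
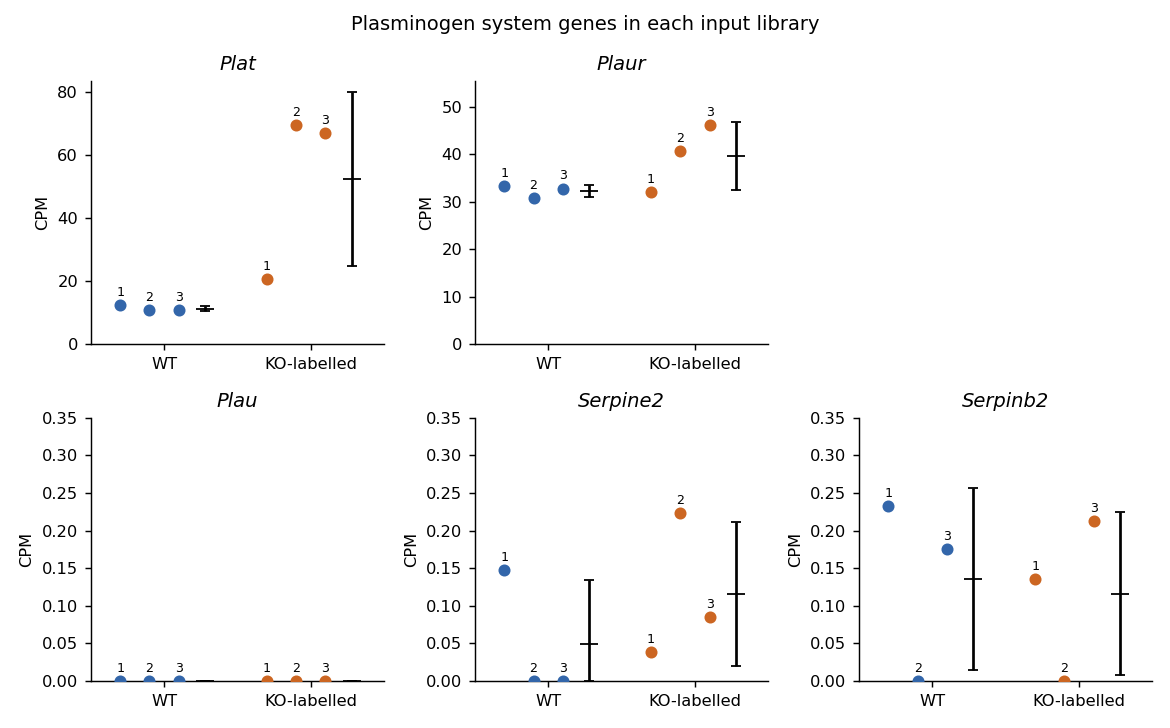
Level in CPM (vertical axis, linear, from 0) of the 5 genes in each input library; points are libraries numbered by replicate, and the horizontal tick and bar are the mean ± SD (n = 3), cut at 0. Plat is high in KO-labelled replicates 2 and 3, Plaur spans 30.8 to 46.2 CPM, and the lower row, on a scale that ends below 1 CPM, holds the genes at or near 0.

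Of the 5 genes, 2 passed the filter on low counts, and 1 of these, Plat, was among the genes called higher. Over the whole table, edgeR called 2.99% of the 18969 tested genes higher and 1.54% lower at an adjusted p below 0.05. Since the genes were picked with this contrast known, nothing is read from that count. KO-labelled libraries all lay above WT for 17.7% of tested genes and all below for 16.2%, and Plat was among the former. Without KO-labelled replicate 1, edgeR called 19.3% of tested genes higher and 16.1% lower, Plat and Plaur among the higher. Plat alone was called with RLE size factors and with DESeq2. Neither was called by edgeR without the filter on low counts or with the replicate number as a block. The same held with any other single library left out. Nothing is read from these calls either.

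Levels of different genes can be compared only per length. Per kilobase of annotated exon, Plaur was above Plat in every library, with 12.7, 11.8 and 12.5 CPM per kilobase in WT and 12.3, 15.6 and 17.6 in KO-labelled libraries. Plat on that scale had 1.97, 1.74 and 1.72 in WT and 3.32, 11.1 and 10.7 in KO-labelled libraries. Its gap to Plaur was thus wide in WT and much narrower in KO-labelled replicates 2 and 3. The annotated exons of Plat, which include isoforms beyond the coding transcript, span 6241 bases, and its coding transcript has 2525. Per kilobase of coding transcript, Plat reached 27.5 in KO-labelled replicate 2, beside 27.1 for Plaur, and stayed below Plaur in the other 5 libraries. In WT, the Plat level per kilobase of exon was at or above that of 36.1% of tested genes, and the Plaur level at or above that of 72.6%.

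The genes whose level followed Plat most closely over the 6 libraries, among 652 genes with a mean of at least 5 CPM and an SD of at least 0.5 in log2 CPM, were Raph1, Dusp14 and Itpk1, with Pearson correlations of 0.999, 0.999 and 0.998. Raph1, which encodes the actin regulator lamellipodin, ran at 39.1, 35.4 and 35.3 CPM in WT and at 49.1, 84.4 and 83.1 CPM in KO-labelled libraries. Itpk1, an inositol phosphate kinase, ran at 30.7, 31.3 and 28.5 CPM in WT and at 47.9, 116 and 110 CPM in KO-labelled libraries. All 3 share with Plat an intermediate level in KO-labelled replicate 1. Plaur was followed most closely by Klf5, Prag1 and Pik3c2b, with correlations of 0.988, 0.987 and 0.983. Klf5, a transcription factor, stood at 4.35, 3.60 and 4.50 CPM in WT and at 4.02, 11.1 and 13.4 CPM in KO-labelled libraries, so that, as for Plaur, replicate 1 lay within the WT range and replicate 3 was highest. These correlations describe 6 points that share the split between the libraries, and carry no test.

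The wider system was described with 40 partner genes, chosen by function: plasminogen and its receptors, other inhibitors, clearance receptors, and linked coagulation and HGF genes. Of these, 26 were tested. At an edgeR adjusted p below 0.05, 0 were higher and 1 was lower, beside 2.99% and 1.54% of all tested genes. At an unadjusted p below 0.05, edgeR counted 7 higher and 4 lower, beside 16.9% and 12.6% of all tested genes. DESeq2, run on the same genes, called 5 higher and 2 lower after adjustment, beside 11.8% and 7.10%. Thbs1, Serpini1, Plgrkt, Itgav and Ctsb, described below, were among those DESeq2 called. The groups did not overlap for 5 partners in the higher and 5 in the lower direction, beside 17.7% and 16.2%. The median log2 fold change of the partners was 0.02, beside -0.01 for all tested genes. Without KO-labelled replicate 1, edgeR called 9 higher and 6 lower of 27 tested, beside 19.3% and 16.1% of all genes, and without WT replicate 2, WT replicate 3, KO-labelled replicate 2 or KO-labelled replicate 3 it called 0.

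Thbs1 was the partner that edgeR called with all libraries in. It encodes thrombospondin-1, a matrix protein that binds plasminogen and activates TGF-β. It stood at 123, 137 and 147 CPM in WT and at 67.2, 46.9 and 49.4 CPM in KO-labelled libraries. All KO-labelled libraries, replicate 1 included, lay below all WT libraries. The means were 136 ± 11.9 and 54.5 ± 11.1 CPM (SD, n = 3), and edgeR put the log2 fold change at -1.32 (SE 0.15, adjusted p = 0.018).

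Neuroserpin (Serpini1), an inhibitor of tPA, measured 8.22 ± 0.801 CPM in WT against 17.4 ± 6.67 CPM in KO-labelled libraries (log2 fold change by edgeR 1.08, SE 0.29, adjusted p = 0.0708), with the groups apart. Without KO-labelled replicate 1, a fit that left 2 KO-labelled libraries, it was 1.37 (edgeR adjusted p = 0.000246). With any other single library left out, no partner but Thbs1 was called. Relative to the WT mean on the log2 CPM scale, KO-labelled replicate 1 was at 0.87 for Plat and at 0.25 for Serpini1, while replicates 2 and 3 averaged 2.59 and 1.37.

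**Figure D2:**
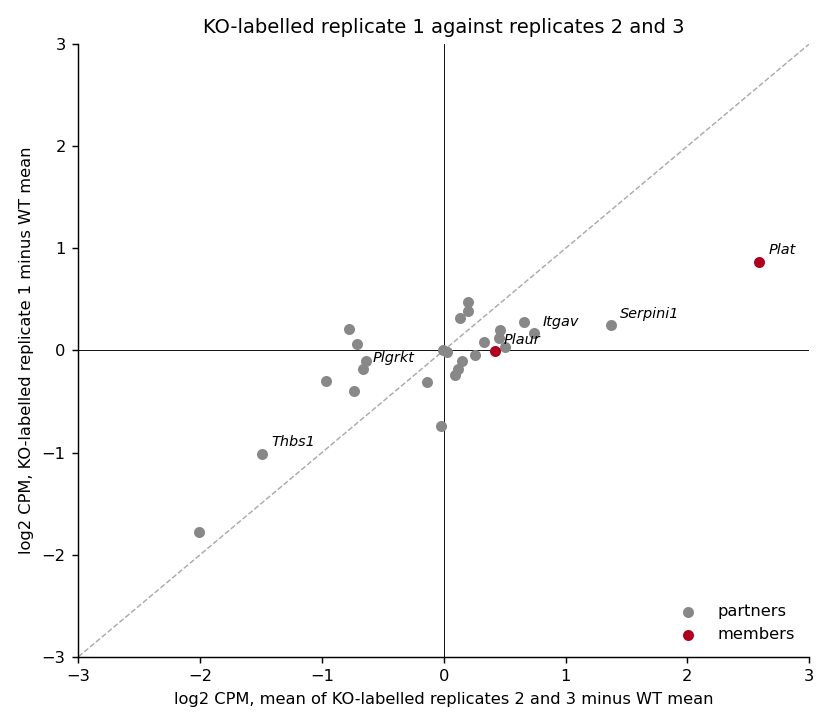
Each point is a tested gene, with the mean log2 CPM of KO-labelled replicates 2 and 3 minus the WT mean on the horizontal axis and KO-labelled replicate 1 minus the WT mean on the vertical axis; red points are Plat and Plaur, grey points the partners, and the dashed line marks equal values. Plat lies at 2.59 and 0.87, Serpini1 at 1.37 and 0.25, and Thbs1, at -1.49 and -1.01, lies nearer the line.

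Plasminogen itself (Plg), which the liver makes, was at 0 to 0.0406 CPM, with reads in KO-labelled replicate 2 only. The docking proteins described here were abundant, and edgeR with all libraries in did not call them. Annexin A2 (Anxa2) measured 849 ± 43.3 CPM in WT against 864 ± 101 CPM in KO-labelled libraries (SD, n = 3; log2 fold change 0.03, SE 0.10), and its partner S100a10 measured 426 ± 33.4 against 429 ± 11.3 CPM (0.01, SE 0.08). The plasminogen receptor with a C-terminal lysine (Plgrkt) stood at 78.6 ± 1.90 CPM in WT against 56.4 ± 11.8 CPM in KO-labelled libraries (log2 fold change by edgeR -0.48, SE 0.14, adjusted p = 0.0832). Its groups did not overlap, and without KO-labelled replicate 1 the log2 fold change was -0.65 (edgeR adjusted p = 0.00085). Integrin αv (Itgav), a vitronectin receptor that associates with uPAR, measured 79.0 ± 3.32 and 118 ± 25.0 CPM (log2 fold change 0.58, SE 0.15, edgeR adjusted p = 0.0676), with the groups apart. Without KO-labelled replicate 1 it was 0.75 (edgeR adjusted p = 0.000226). The clearance receptors Lrp1, which takes up activators bound to inhibitors, and Mrc2, a collagen receptor that associates with uPAR, measured 340 ± 47.3 against 388 ± 37.2 CPM and 30.6 ± 4.15 against 37.3 ± 4.29 CPM. Both pairs of groups overlapped. Of 2 proteases that can activate pro-uPA, cathepsin B (Ctsb) measured 926 ± 21.5 and 1100 ± 109 CPM, with the groups apart (log2 fold change 0.25, edgeR adjusted p = 0.105, and 0.33 with 0.0057 without KO-labelled replicate 1), and matriptase (St14) was below or near 1 CPM throughout, at 0.811 ± 0.0979 and 0.699 ± 0.284 CPM.

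Among 28 other serpins, 12 were tested, and edgeR called 1 higher and 0 lower, beside 2.99% and 1.54% of all tested genes. At an unadjusted p below 0.05 edgeR counted 3 higher and 0 lower, beside 16.9% and 12.6%, and DESeq2 on the same genes called 2 higher and 0 lower, beside 11.8% and 7.10%. Without WT replicate 2, WT replicate 3, KO-labelled replicate 2 or KO-labelled replicate 3, edgeR called 0, and without KO-labelled replicate 1 it called 4 higher and 3 lower, beside 19.3% and 16.1% of all genes. The gene called was Serpinh1, which encodes the collagen chaperone HSP47 and does not inhibit proteases. It stood at 543, 481 and 481 CPM in WT and at 658, 667 and 646 CPM in KO-labelled libraries (log2 fold change by edgeR 0.39, SE 0.07, adjusted p = 0.0377). Here KO-labelled replicate 1 lay with the other two. Serpinb6a, an intracellular serpin, measured 390 ± 30.8 and 390 ± 20.1 CPM (SD, n = 3), and Serpinb9, the granzyme B inhibitor, 20.7 ± 1.38 and 16.8 ± 2.55 CPM. The Serpinb9 groups did not overlap, and its log2 fold change was -0.30 (edgeR adjusted p = 0.18), or -0.43 without KO-labelled replicate 1 (edgeR adjusted p = 0.0134). The median log2 fold change of the tested serpins was 0.02.

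**Figure D3:**
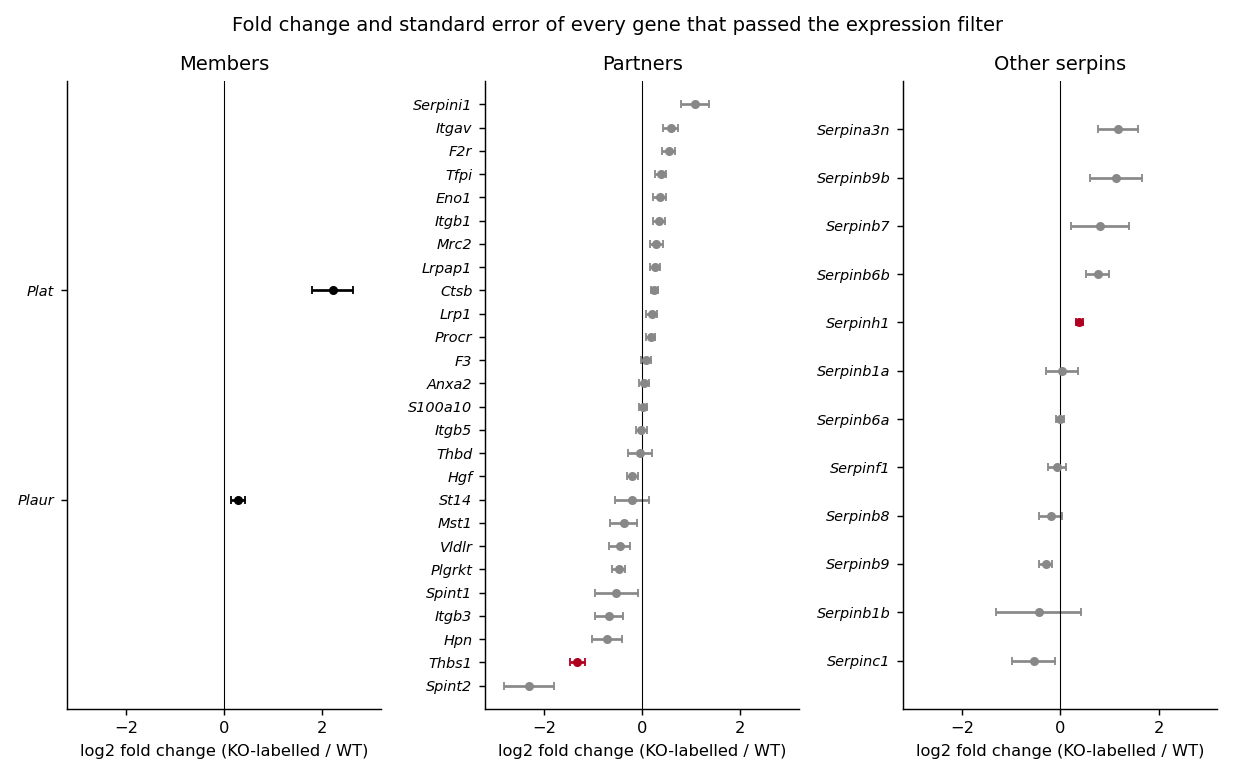
Log2 fold change of KO-labelled over WT libraries (horizontal axis) with its standard error (bar) for Plat and Plaur (left), the 26 tested partners (middle) and the 12 tested other serpins (right); red marks an edgeR adjusted p below 0.05, and the left panel carries no test. Plat, at 2.21, lies farthest to the right, and the medians of the other panels are both 0.02.

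The peak lists held 19236 WT m6A peaks in 9427 genes, 17428 KO-labelled m6A peaks in 8686 genes and 23372 RIP peaks in 6754 genes. No m6A peak lay on Plat, Plau, Plaur, Serpine2 or Serpinb2 in either m6A list, although the coding transcripts of Plat and Plaur hold 53 and 36 DRACH matches. For genes with a WT mean of 10 to 50 CPM, the range that holds Plat and Plaur, 71.6% had a WT m6A peak and 67.5% a KO-labelled one, and 55.6% had a RIP peak. A RIP peak with no m6A peak in either list, the state of Plat and Plaur, was found for 302 of these 5324 genes, or 5.67%, and made up 10.2% of those with a RIP peak. Plat, at 11.3 CPM in WT, lay near the lower end of this range, and no background matched more closely to its level was drawn. With 1 list for each group, peaks have no replicate error, and a missing peak does not show that the mark is absent.

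The 2 peaks differ in score, a value the authors deposited with each peak, which runs from 0 to 0.003 over the RIP list and was ranked from the smallest. That a smaller score marks a stronger peak was read from the values alone. The Plaur peak had a score of 5e-13 and rank 6990 of 23372, within the first 29.9%. The Plat peak had a score of 3.7e-05 and rank 19593, at 83.8% of the list, and it would be lost at a score limit of 1e-05. The ranks carry no information on change between groups, since RIP was done in WT cells only. The centre of the Plat peak lay 39 bases before the end of the stop codon, with 129 bases in coding sequence and 51 in the 3′ UTR, whereas 49.1% of RIP peaks of its length centre in a 3′ UTR.

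Among the 26 tested partners, 14 had a WT m6A peak, 12 a KO-labelled one and 14 a RIP peak. These are 53.8%, 46.2% and 53.8%, beside 48.7%, 45.0% and 34.3% of all tested genes. For genes with a WT mean of 10 to 50 CPM the shares were 71.6%, 67.5% and 55.6%. The partners lay both below and above that range, and no background matched to their levels was drawn. A WT m6A peak with no KO-labelled one was found for 2 of the 26, beside 1070 of the 18969 tested genes. The 2 were St14 and Vldlr, named after their peaks were seen. The St14 peak, on a gene at 0.811 CPM in WT, had 61 bases and rank 18983 of 19236 by score. The Vldlr peak had 210 bases and rank 13235. Thbs1 had 2 m6A peaks in each list and 7 RIP peaks, whereas Plgrkt had 1 m6A peak in each list and no RIP peak. Of the 12 tested other serpins, 2 (16.7%) had m6A peaks in both lists and 4 (33.3%) had RIP peaks.

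**Figure D4:**
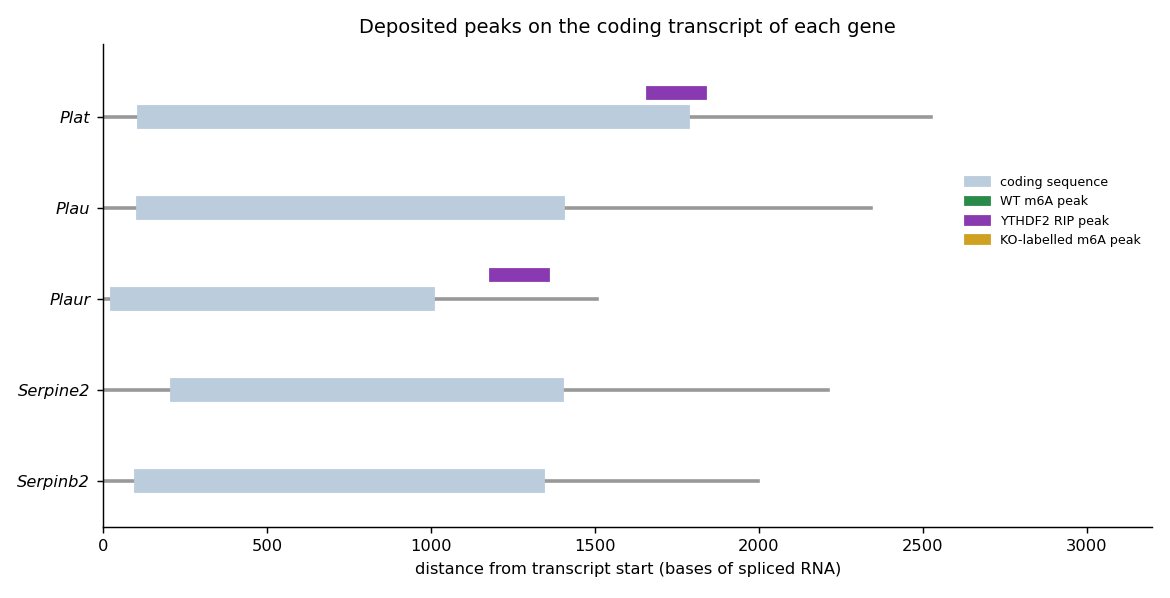
Deposited peaks drawn on the spliced coding transcript of each gene, with distance from the transcript start in bases on the horizontal axis; thick bars are coding sequence, thin lines UTRs, and coloured blocks the peaks of each list. Plat has 1 RIP peak over its stop codon, Plaur 1 in its 3′ UTR, and Plau, Serpine2 and Serpinb2 have none; no m6A peak lies on any of them.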

How the data were processed

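The authors deposited a table of raw counts, 1 column for each of the 6 input libraries, and 3 peak lists whose value per peak is headed score in the deposited files. The submitters' processing notes list HISAT2, HOMER, ChIPseeker and mm10 without their roles. For the counter, strand setting, annotation release and peak caller, no name was given in the sources used here. Counts were tested with edgeR 4.0.16 in R 4.3.3 (TMM, filterByExpr, quasi-likelihood F test, Benjamini-Hochberg threshold 0.05, KO-labelled over WT, no covariate); DESeq2 1.42.0 was an alternative. The fit was tested on simulated data. Those counts were drawn independently for each library, with none set apart within its group, so they do not cover the split of KO-labelled replicate 1. Library pairs were compared by chi-square per degree of freedom, 9.01 for the closest pair, so none counted as a duplicate. Correlations used log2 CPM with a prior count of 2.

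Gene positions, transcripts and sequences came from GENCODE M21 (GRCm38, the assembly of mm10), which held 54349 of 55401 gene IDs. Peaks were placed on the transcript with the longest coding sequence. IP and RIP reads per library were not analysed here, and 1 gene of the partner list is not reported here and is left out of its counts.

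The genes and lists were chosen with earlier results of these data known. Named genes were the 5 genes, Ythdf2, up to 4 called genes per list and direction, 13 genes fixed for their role, and the 3 most correlated genes.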

Additional observations from a re-analysis of the deposited data

How the results depend on the processing

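The log2 fold change of Plat lay between 1.96 and 2.60 and that of Plaur between 0.17 and 0.43 over the 11 alternatives run, with no change of direction. Over all genes 861 were called, and 786 with RLE size factors. DESeq2 without edgeR's filter on low counts called 3274, and gave an adjusted p to 16577 of 35049 genes. On the genes edgeR tested (added after seeing the data) DESeq2 called 3590, and gave an adjusted p to 15639 of 18969. Its shares quoted above are of all 18969. Without the filter on low counts edgeR called 111. With single libraries left out edgeR called 0 to 6926. The 6926 came without KO-labelled replicate 1 and the 0 without WT replicate 2, where 4011 had an unadjusted edgeR p below 0.05. Partners called went from 1 to 7 with DESeq2, under either choice of genes, and ranged from 0 to 15 with libraries left out. Other serpins called went from 1 to 2 with DESeq2, under either choice of genes, and 0 with edgeR without the filter, and ranged from 0 to 7. The cause was not tested. Where 1 library was left out of a group, 2 remained.

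With the replicate number as a block, 71 genes, 0 partners (16 at an unadjusted edgeR p below 0.05) and 0 other serpins (4) were called. The log2 fold change was 2.05 for Plat and 0.28 for Plaur. Deviations of same-numbered libraries correlated at 0.05, 0.11 and 0.05. Each library correlated best with its own number, which is a hint from the data and not the design. The labels state no block, and correlations this small cannot settle whether same-numbered libraries share more than a number.

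The WT level of Plat per kilobase moved from 1.81 to 4.47, and that of Plaur from 12.3 to 21.5, when the coding transcript replaced all annotated exons. Peaks on the 5 genes fell from 2 to 1 at a score limit of 1e-05. Plau, Serpine2 and Serpinb2 are limited by counts at or near 0, and counts this low cannot show a difference between groups.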
